A study of Glycine max with 12 samples.

Results

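Developing soybean seeds that carry the same label, null, were compared within themselves: null libraries 4 to 6 were set against null libraries 1 to 3, which is 6 of the 12 libraries of the series. The libraries were taken by the replicate number in their titles, and all 32115 of 52872 genes that passed a filter on low counts were used. Both sets have genotype 93Y21, were collected 35 days after flowering, bear the line code 33A and are given as null, the controls of the events; the sources used here do not say whether nulls carry any part of the GmUBQ promoter construct of the events, or in which cells that promoter acts. The other libraries are 3 of event e15 (line code 15A) and 3 of event e19 (line code 19A), homozygous as the titles mark them (HOM), of the same genotype and collection day, in a study of a deletion variant of a cystathionine gamma-synthase, an enzyme of methionine synthesis. The sources used here do not state whether a library stands for 1 plant, pooled seeds, a harvest or an extraction, nor any difference between nulls 4 to 6 and nulls 1 to 3. The division was proposed because these libraries already differed in their expression values, so every difference between the null sets below is a description. Genes are counted there as called by edgeR's test, as a measure of size against the spread between libraries, and these calls are no evidence for the division.

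During seed filling, soybean cotyledons accumulate storage proteins and oil, and the transcripts of a small number of storage protein genes come to make up much of the messenger RNA. As seeds mature, the transcripts of growth and photosynthesis give way to those of desiccation tolerance, and many plant genes also follow the time of day through the circadian clock. Seed stage, filling and time of harvest are therefore the questions such a division raises. The table names genes by Glyma identifiers, and 0 of the 52872 identifiers were found in RefSeq's gene list for Glycine_max_v4.0. Lists of storage protein, maturation, photosynthesis, cell division, clock and other-tissue genes rest on gene names and were not analysed here, and neither was the labelled tissue checked against its markers. Genes are described by abundance, by size of difference and by their levels in libraries that did not define the division.

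Total counts were 21640645 to 23276877 in nulls 4 to 6 and 21357512 to 22773561 in nulls 1 to 3. Levels are CPM, the counts of a gene relative to the library total, on library sizes scaled with TMM factors, which equalise the bulk of genes between libraries. These factors were 0.954 to 0.986 in nulls 4 to 6 and 1.10 to 1.12 in nulls 1 to 3, without overlap. Across the 32115 genes, log2 CPM of a library in nulls 4 to 6 had a Pearson correlation of 0.986 to 0.987 with the others of its set, and nulls 1 to 3 of 0.988 to 0.989 among themselves. A library of nulls 4 to 6 and one of nulls 1 to 3 correlated at 0.975 to 0.978, so each null library was closer to its own set than to any library of the other. On the first principal component of the 12 libraries, with 25.3% of the variance, nulls 4 to 6 had scores of 17.4 to 19.4 and nulls 1 to 3 of -43.6 to -39.7. The scores of e15 were 9.34 to 15.7, those of e19 libraries 1 and 2 were 23.8 and 20.2, and that of e19 library 3 was -11.2, between the null sets.

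The counts of nulls 4 to 6 were concentrated in fewer genes than those of nulls 1 to 3. The 20 genes that were most abundant in the event libraries, a ranking that does not use the nulls, held 44.4%, 43.8% and 43.7% of the counts in nulls 4, 5 and 6, against 38.4%, 39.6% and 39.5% in nulls 1, 2 and 3. Over the genes called between the null sets, most event libraries lay nearer to nulls 4 to 6, as given below. A ranking in them can thus favour genes higher in nulls 4 to 6, and its part in the share was not tested. The libraries of the sets did not overlap, and the share was 4.79 percentage points larger in nulls 4 to 6. No single gene made this difference: the largest contribution of 1 gene was 0.706 percentage points, and the 4 largest together gave 2.76 points. For 14 of the 20 genes the share was larger in every library of nulls 4 to 6 than in any of nulls 1 to 3, and for 1 gene it was smaller in every library. The 80 genes of the next ranks held 10.8% ± 0.16 of the counts in nulls 4 to 6 and 9.95% ± 0.13 in nulls 1 to 3 (SD, n = 3 each). Less abundant genes held less: those below rank 8000 had 11.0% ± 0.22 of the counts in nulls 4 to 6 and 12.9% ± 0.18 in nulls 1 to 3 (SD, n = 3 each), without overlap.

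Fewer genes were seen at equal depth in nulls 4 to 6. In 19207771 reads, the total of the shallowest library of the series, the expected number of genes with at least 1 read was 38392, 38541 and 38378 in nulls 4, 5 and 6, against 39170, 39016 and 39041 in nulls 1, 2 and 3. The sets did not overlap here either. The share of the 20 most abundant genes moves with this count, and its part in the difference was not tested. In the event libraries e15 1, 2 and 3 had 38673, 38276 and 38706 genes, and e19 1, 2 and 3 had 38207, 38160 and 38737.

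**Figure D1:**
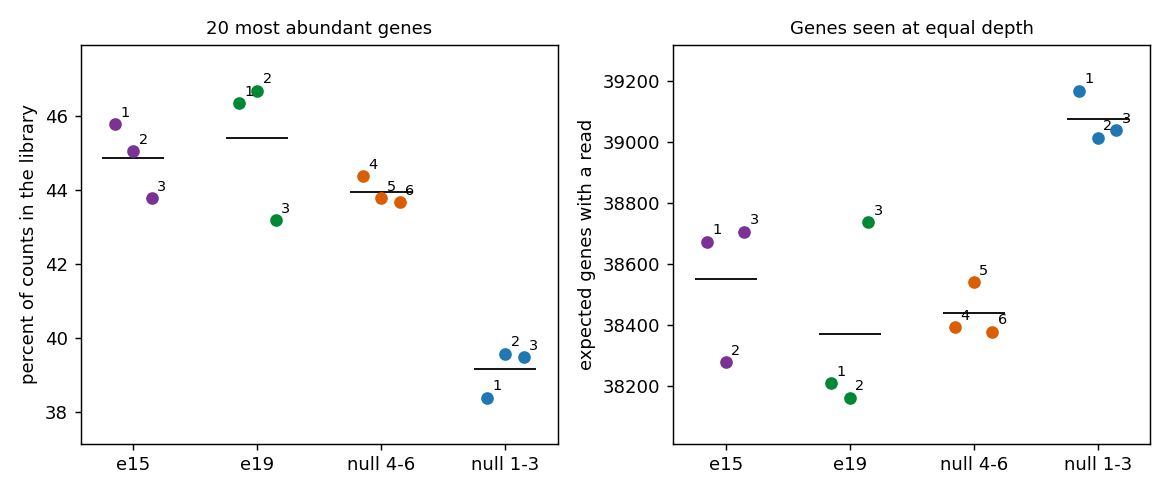
Share of the counts held by the 20 genes most abundant in the event libraries (left, percent) and expected number of genes with a read at 19207771 reads (right) in the 12 libraries; points are libraries with their replicate number, lines are group means, and neither axis starts at 0. Nulls 4 to 6 lie at 43.7% to 44.4% and nulls 1 to 3 at 38.4% to 39.6%, with e15 and e19 near or above nulls 4 to 6 and e19 library 3 the lowest of the events at 43.2%.

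The difference between the null sets varied with the abundance rank of a gene in the event libraries. Most of these libraries lay nearer to nulls 4 to 6 over the called genes, and the part of this in the order was not tested. For the 20 most abundant genes the median log2 difference, nulls 4 to 6 minus nulls 1 to 3, was 0.31, and all 20 were positive, between 0.04 and 0.90. It was 0.23 for ranks 21 to 100, where 67 of 80 genes were positive, and 0.07 for ranks 101 to 500, where 281 of 400 were. It continued at 0.04 for ranks 501 to 2000 and 0.03 for ranks 2001 to 8000, and was -0.02 for the 24115 genes below, of which 46.6% were positive. The median over all tested genes was 0.00.

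Genes below rank 8000 spread from a 5th percentile of -0.73 to a 95th percentile of 0.50 in log2 difference, wider than ranks 2001 to 8000 with -0.27 and 0.30. Under edgeR's quasi-likelihood test at a false discovery rate of 0.05 13 of the 20 most abundant genes were called higher in nulls 4 to 6 and 0 lower, against 4.51% of all tested genes called higher and 5.08% called lower. Among ranks 21 to 100 these numbers were 35 and 3, and among ranks 101 to 500 they were 96 and 18. Below rank 8000, 636 genes (2.64%) were called higher and 1294 (5.37%) lower. The abundance order of the medians was kept when library totals alone were used in place of TMM factors, with medians of 0.11 for the first 20 genes, 0.03 for ranks 21 to 100, -0.12 for ranks 101 to 500, -0.15 for ranks 501 to 2000, -0.17 for ranks 2001 to 8000 and -0.22 below rank 8000. That scaling moves the median of all genes by -0.20, and it turns the sign of the median for the ranks from 101 to 8000. With it 16 of the 20 most abundant genes were positive, 8 of them were called higher and 0 lower. The genes called higher and lower were then 22 and 13 at ranks 21 to 100, 29 and 131 at ranks 101 to 500, and 289 and 4529 below rank 8000. Of these 20 genes 1 had whole counts in every library, as had 6464 of all 32115 tested genes. Whether the estimated counts of the others split reads between near-identical copies was not tested, and their levels are uncertain to that extent.

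**Figure D2:**
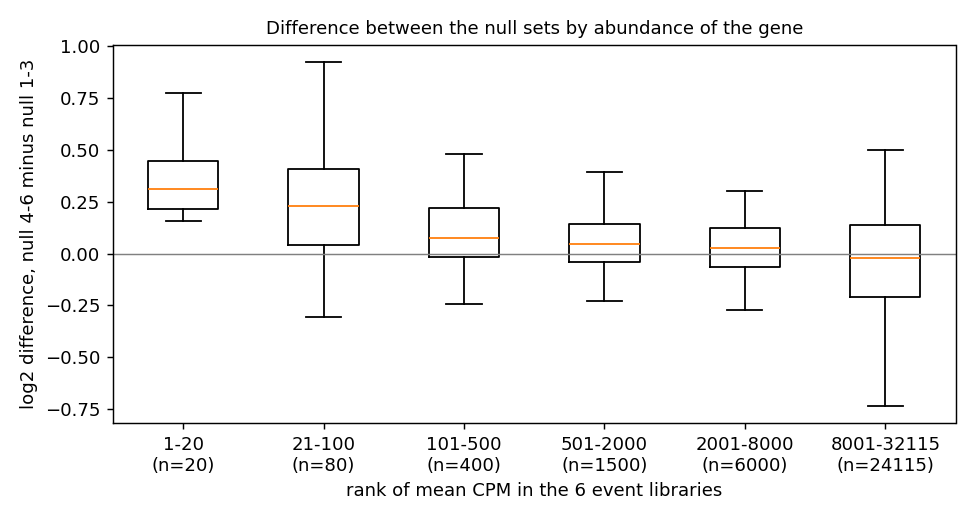
Log2 difference of nulls 4 to 6 minus nulls 1 to 3 for genes grouped by their rank of mean CPM in the 6 event libraries; the line in a box is the median, the box spans the 25th to 75th percentile and the whiskers the 5th to 95th percentile. Medians go from 0.31 at ranks 1 to 20 down to -0.02 below rank 8000, where the whiskers reach furthest down. Most event libraries lay nearer to nulls 4 to 6 over the called genes, and the part of this in the ranking was not tested.

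In all, 3079 genes (9.59% of those tested) were called between the null sets, 1448 higher and 1631 lower in nulls 4 to 6. With library totals alone 7523 were called, 514 higher and 7009 lower, and in a fit of the 6 null libraries alone 5004, 2332 higher and 2672 lower. Most differences were moderate: the middle 90% of all tested genes lay between log2 differences of -0.65 and 0.46. The genes called higher had a median log2 difference of 0.41, a 1.33-fold difference. Their median level was 20.1 CPM in nulls 4 to 6, against 15.1 CPM in nulls 1 to 3. The genes called lower had a median log2 difference of -0.68, which is 1.60-fold lower. Their median level was 4.16 CPM in nulls 4 to 6, against 6.68 CPM in nulls 1 to 3. Differences of at least 2-fold were seen in 175 of the genes called higher and 427 of those called lower, and of at least 4-fold in 39 and 60. The libraries of the sets did not overlap for 9505 tested genes (29.6%), 4698 of them higher and 4807 lower in nulls 4 to 6. Each set rests on 3 libraries, and without null 1, 2, 3 or 4 the count of 3079 was 1941, 1941, 1803 or 1701.

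Few genes were present in one null set and absent in the other. At least 10 counts in each of nulls 4 to 6 and at most 3 in each of nulls 1 to 3 were found for 4 genes on 3 chromosomes, with at most 52 counts in any null library. The opposite was found for 18 genes on 11 chromosomes, with at most 40 counts. Of those 18 genes all had more than 3 counts in some event library, 8 in each e15 library and 7 in each e19 library. Of the 4 genes, 3 had more than 3 counts in each event library.

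By a rule on size and abundance that 1167 higher and 960 lower genes met (called, at least 5 CPM on average in either set, no overlap between the libraries), the largest difference and the most abundant gene in each direction are given by identifier. Glyma.03G056000, on chromosome 3, had the largest excess in nulls 4 to 6. It had 3.75, 3.85 and 8.20 CPM in nulls 4, 5 and 6, against 0.417, 0.120 and 0.285 CPM in nulls 1, 2 and 3. The sets did not overlap, the level of null 6 stood above those of nulls 4 and 5, and the fitted log2 difference was 4.25 ± 1.06 (SE) on 3 to 10 counts per library in nulls 1 to 3. Its counts were whole in all libraries.

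The most abundant gene of those higher in nulls 4 to 6 was Glyma.20G148400 on chromosome 20. It had 78941, 74548 and 75348 CPM in nulls 4, 5 and 6, against 58909, 62789 and 62085 CPM in nulls 1, 2 and 3. The means were 76279 ± 2340 and 61261 ± 2067 CPM (SD, n = 3 each), a log2 difference of 0.32 ± 0.09 (SE). With library totals alone this difference was 0.12, and it was then no longer called. Its counts were not whole in all 12 libraries.

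Glyma.07G116500, on chromosome 7, had the largest deficit in nulls 4 to 6. Its level was 0.324, 1.22 and 1.43 CPM in nulls 4, 5 and 6, against 11.6, 10.8 and 10.9 CPM in nulls 1, 2 and 3. The log2 difference was -3.48 ± 0.77 (SE), which is 11.1-fold lower, and the sets were far apart. Its counts were not whole in 1 library. The most abundant gene of those lower in nulls 4 to 6, Glyma.06G022600 on chromosome 6, had 1855, 1965 and 1600 CPM in nulls 4, 5 and 6, against 2916, 2756 and 2813 CPM in nulls 1, 2 and 3. Its log2 difference was -0.65 ± 0.16 (SE), without overlap between the sets, and its counts were not whole in all 12 libraries. Without null 1, 2, 3, 4 or 6 none of these 4 genes was called, and without null 5 Glyma.03G056000 and Glyma.07G116500 were not. The sign of all 4 stayed the same in every alternative run.

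**Figure D3:**
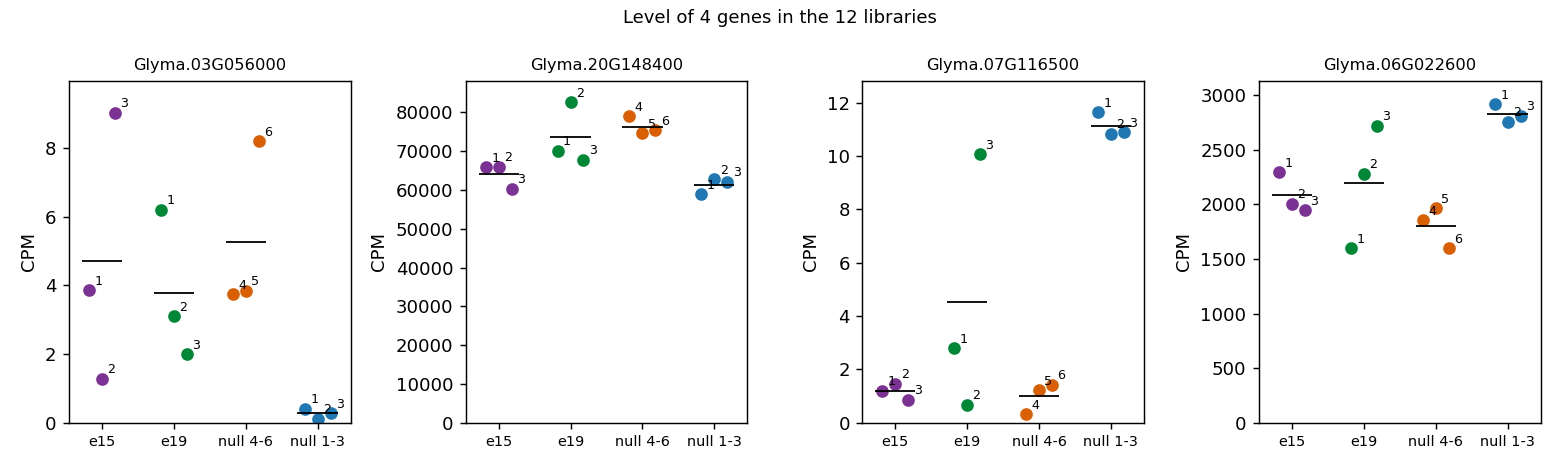
Level (CPM) of the 4 genes chosen by size of difference and by abundance in e15, e19, nulls 4 to 6 and nulls 1 to 3; points are libraries with their replicate number and lines are group means. Nulls 4 to 6 and nulls 1 to 3 do not overlap for any of the 4 genes, and e19 library 3 lies close to nulls 1 to 3 for Glyma.07G116500 and Glyma.06G022600. For Glyma.03G056000 and Glyma.20G148400 that library lies between the null sets.

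The event libraries, which did not define the division, mostly lay on the side of nulls 4 to 6. Over the 3079 called genes the e15 mean was nearer to nulls 4 to 6 for 2450 genes (79.6%) and the e19 mean for 2534 (82.3%). On a scale where nulls 1 to 3 are at 0 and nulls 4 to 6 at 1, weighted by the size of each gene's difference, e15 libraries 1, 2 and 3 lay at 0.659, 0.685 and 0.750. On the same scale e19 libraries 1 and 2 lay at 0.882 and 0.831, and e19 library 3 at 0.486. That library was about as near to one null set as to the other, with 1598 of the called genes (51.9%) nearer to nulls 4 to 6. Called genes were chosen for a large difference between these nulls, and the part of that choice in these positions was not tested.

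Over the called genes, e19 libraries 1 and 2 mostly differed from library 3 in the direction of the null difference. Across all tested genes the e19 libraries did not divide as the nulls did. Libraries 1 and 2 correlated at 0.981 with each other, and at 0.981 and 0.982 with library 3. The log2 difference between the mean of e19 libraries 1 and 2 and library 3 shares no library with the difference between the null sets, and over the 3079 called genes both had the same sign for 2647 (86.0%), against 62.2% of all tested genes. Across the called genes Pearson's r was 0.72 and Spearman's rho 0.72, and across all 32115 tested genes 0.38 and 0.34, where genes are not independent replicates and all values share the TMM scaling. Among genes called higher in nulls 4 to 6 the median of e19 libraries 1 and 2 was above library 3 by a log2 difference of 0.17, and among genes called lower the median difference was -0.27. With genes of at least 5 CPM in the events alone, r over the 1934 called genes was 0.84. It was 0.70 over the 632 called genes whose counts were whole throughout.

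This likeness to the null difference rests on 1 library and has no replicate check. e19 library 3 had the lowest total of the series, 19207771 counts, and a smaller share in the 20 most abundant genes, 43.2% against 46.3% and 46.7% in e19 libraries 1 and 2. With library totals alone r was 0.71 over the called genes, but the share with the same sign was 75.6%, against 74.5% of all tested genes, so the excess in sign is seen with TMM scaling alone of these scalings. The same measure for each e15 library against the other e15 libraries gave r of 0.10, 0.08 and -0.22 over the called genes. The corresponding values of e19 libraries 1 and 2 were -0.46 and -0.39, which are tied to that of library 3 by construction.

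Glyma.07G116500 had 2.79, 0.684 and 10.1 CPM in e19 libraries 1, 2 and 3, and 1.20, 1.47 and 0.869 CPM in the e15 libraries. Its level in e19 library 3 was thus near the 10.8 to 11.6 CPM of nulls 1 to 3, and the others were nearer to nulls 4 to 6. This gene met the rule of 5 CPM through nulls 1 to 3 alone. Glyma.06G022600 had 1601, 2282 and 2720 CPM in the e19 libraries and 2295, 2009 and 1950 CPM in the e15 libraries, with library 3 of e19 again the highest. Glyma.20G148400 had 70128, 82669 and 67770 CPM in the e19 libraries and 65912, 65985 and 60283 CPM in the e15 libraries. The e15 levels of this gene lay within or above the 58909 to 62789 CPM of nulls 1 to 3 and below each of nulls 4 to 6. Glyma.03G056000 had 1.99 CPM in e19 library 3. That lay above the 0.120 to 0.417 CPM of nulls 1 to 3 and below each of nulls 4 to 6. All 4 genes were chosen by their null levels, and the part of that choice here was not tested.

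**Figure D4:**
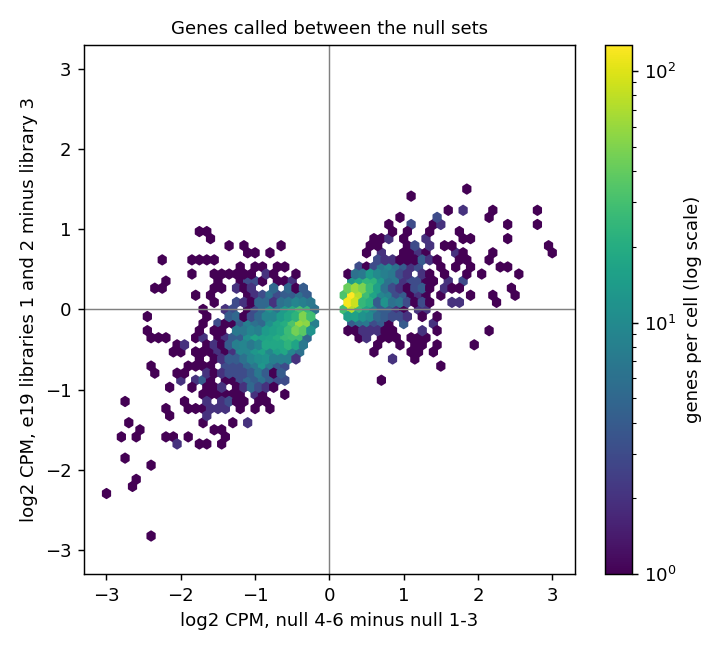
Log2 difference of nulls 4 to 6 minus nulls 1 to 3 (horizontal) and of e19 libraries 1 and 2 minus e19 library 3 (vertical) for the 3079 called genes; colour gives the number of genes per cell on a log scale, and genes with a difference above 3 in size lie outside the panel. The points run from lower left to upper right, with 86.0% of the genes in the quadrants of equal sign.

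The genes with the widest differences between the null sets also varied among the replicates of e15, in another order. Of the genes with at least 5 CPM in the events, 43 were called higher in nulls 4 to 6 by at least 2-fold. Among the 3 e15 libraries, library 1 was the highest for 35 of the 43 (81.4%) and library 2 the lowest for 38 (88.4%), against 29.2% and 32.9% of the 15390 uncalled genes. Glyma.03G056000 did not follow this order at the top, with 3.87, 1.28 and 9.03 CPM in e15 libraries 1, 2 and 3 and 6.21, 3.10 and 1.99 CPM in e19 libraries 1, 2 and 3. In e19, library 3 was the lowest for 32 of the 43 genes (74.4%), against 30.7% of uncalled genes.

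For the 62 genes called lower by at least 2-fold, e19 library 3 was the highest e19 library for 60 (96.8%), against 26.1% of uncalled genes. Among the e15 libraries, library 1 was the highest for 36 (58.1%) and library 2 the lowest for 34 (54.8%), against 29.2% and 32.9% of uncalled genes. At this size of difference library 1 of e15 was often the highest in both directions. e19 library 3 was low in the genes above and high in the genes below in nulls 4 to 6. Over all called genes of at least 5 CPM in the events, the e15 order was weaker or changed. Library 1 was the highest of e15 for 36.4% of 1146 higher genes, and library 2 the lowest for 39.4%. For 788 lower genes, library 2 was the highest for 48.7% and library 3 the lowest for 45.1%. e19 library 3 stayed the lowest of e19 for 70.2% of these higher genes and the highest for 76.6% of the lower. The median SD within a set, in units of log2 CPM, for the 43 genes was 0.35 in e15 and 0.39 in e19, against 0.14 in nulls 4 to 6 and 0.09 in nulls 1 to 3. For uncalled genes it was 0.10 in e15, 0.12 in e19, 0.09 in nulls 4 to 6 and 0.08 in nulls 1 to 3. The null values were used in choosing the called genes, and the part of that choice and of gene abundance in their spread was not tested.

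**Figure D5:**
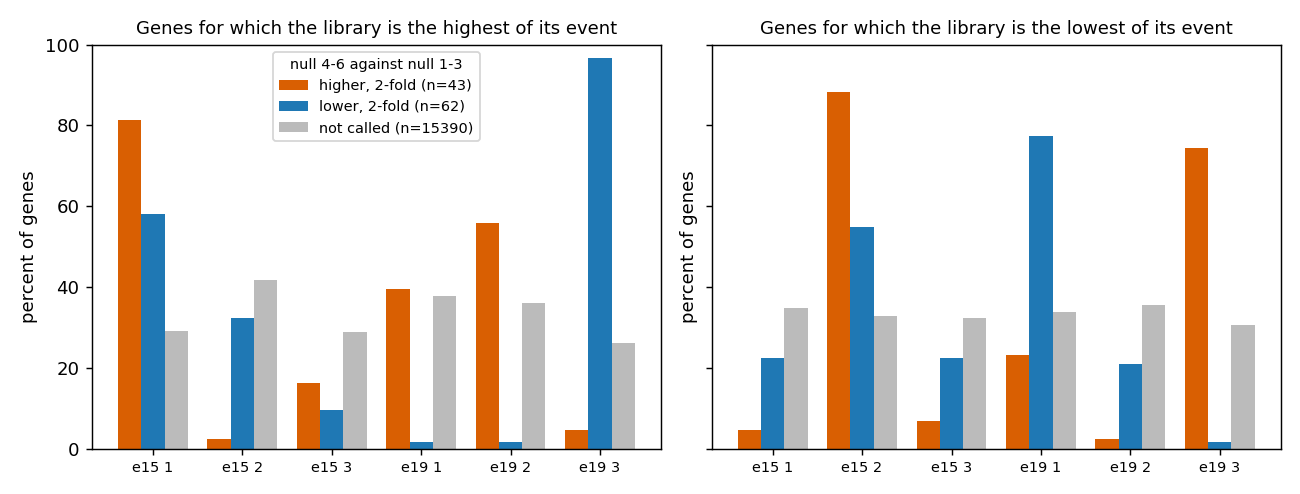
Percent of genes for which each library is the highest (left) or the lowest (right) of the 3 libraries of its event, for genes called at least 2-fold higher (n = 43) or lower (n = 62) in nulls 4 to 6 and for uncalled genes (n = 15390), all with at least 5 CPM in the events. Library 1 of e15 is the highest and library 2 the lowest for most of the 43 genes, and e19 library 3 is the highest for 96.8% of the 62 genes.

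A comparison that does not use the levels of the nulls is that of e15 against e19, which was added after the data were seen. In the fit of all 12 libraries it shares its estimate of the spread with the nulls. In edgeR's quasi-likelihood test with Benjamini-Hochberg adjustment, 341 genes (1.06% of those tested) differed between the events, 91 higher (0.283%) and 250 lower (0.778%) in e15. Of the 3079 genes called between the null sets 142 (4.61%) differed between the events, against 199 of the 29036 others (0.685%). These 3079 genes had a median of 8.81 CPM in the events, against 5.82 CPM over all tested genes. The part of abundance and spread in the excess was not tested, here or in the fit of the events alone. Among genes called higher in nulls 4 to 6, 20 were higher and 49 lower in e15 than in e19, and among genes called lower these numbers were 7 and 66. In a fit of the 6 event libraries alone, which takes nothing from the nulls, 145 genes (0.469%) differed. Of these, 48 were among the 2986 genes of the division tested there (1.61%), and 97 among the 27905 others (0.348%). Fits that kept the nulls but left out 1 event library compare with the 341 genes above, not with the 145. Without e15 library 3, 169 of all tested genes (0.519%) differed. Of the genes of the division 58 (1.88%) did, against 142 (4.61%) with that library. Without e19 library 2, 336 genes differed against the same 341. With 155 higher and 181 lower in e15, the lean towards lower genes was smaller.

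The number of genes that differed from an event went with the null set used. Under the same test, 376 genes (1.17%) differed in e15 against nulls 4 to 6, 105 higher (0.327%) and 271 lower (0.844%), and 81 (0.252%) in e19, 46 higher (0.143%) and 35 lower (0.109%). Against nulls 1 to 3, 2676 genes (8.33%) differed in e15, 1179 higher (3.67%) and 1497 lower (4.66%), and 2322 (7.23%) in e19, 1163 higher (3.62%) and 1159 lower (3.61%). These comparisons share their event libraries, and the null sets were divided after their difference was known, so the numbers are given side by side. With library totals alone the numbers against nulls 1 to 3 were 6484 in e15, 485 higher and 5999 lower, and 8746 in e19, 388 higher and 8358 lower. For e15 the count against nulls 4 to 6 was 210 without null 4 and 223 without e15 library 3. Against nulls 1 to 3 it was 1664, 1713 and 1668 without null 1, 2 and 3 and 1621 without e15 library 3. For e19 the count against nulls 4 to 6 was 51 without null 5 and 158 without e19 library 2, where the balance turned to 55 higher and 103 lower. Against nulls 1 to 3 it was 1295, 1270 and 1191 without null 1, 2 and 3 and 1412 and 1453 without e19 library 1 and 2.

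The genes that differed between the null sets were spread over all chromosomes. Identifiers carry the chromosome and number genes along it, and on the 20 chromosomes between 8.63% (chromosome 16) and 10.8% (chromosome 17) of tested genes were called. The next tested gene on the chromosome was also called higher for 104 of 1443 genes called higher (7.21%, against 4.51% after any gene), and also called lower for 116 of 1627 genes called lower (7.13%, against 5.09%). Of 281 genes called higher with whole counts, the next gene was called higher with whole counts too for 2 (0.712%, against 1.07% after any gene with whole counts). So few genes cannot show whether the excess held there. For genes called lower with whole counts the number was 17 of 350 (4.86%, against 1.46%). The longest run of adjacent tested genes called in 1 direction was 4 genes for higher and 5 for lower. Of the 6464 genes whose counts were whole throughout 632 (9.78%) were called, and of the others 2447 of 25651 (9.54%).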

How the data were processed

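Messenger RNA of 12 libraries was sequenced as single reads from a stranded poly(A) library kit, per the labels' protocols. The authors deposited estimated counts of reads per gene in 1 table, not whole in some library for 79.9% of the genes tested (tolerance 0.0005). The sources used here do not name the aligner, the counting program or the use of strand, so overlapping genes and near-identical copies are uncertain. Counts were rounded, filtered with filterByExpr (32115 of 44782 genes with any count) and tested with edgeR 4.0.16 (R 4.3.3): TMM factors, robust quasi-likelihood, 1 fit of 12 libraries with 4 group means, Benjamini-Hochberg threshold 0.05. Library sizes count all tested genes, and log2 CPM used a prior count of 2. Numbers of genes at equal depth were computed from the hypergeometric distribution. The labels do not say that replicates are separate plants, and p-values then measure only how these samples vary, which may be technical. The script was tested on simulated data. Alternatives included DESeq2 1.42.0. The division, the lists and the rule for named genes (called, at least 5 CPM on average in either null set, no overlap; the first by difference and the first by abundance in each direction) were chosen with earlier results of these data known. No sequences are shown. Columns left out numbered 0.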

Additional observations from a re-analysis of the deposited data

How the results depend on the processing

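Between the null sets the count of 3079 genes stayed within 1.5 times under DESeq2 size factors, DESeq2's test, either other filter, edgeR without the robust option and a fit without e19 library 3. With library totals alone it was 7523 (514 higher and 7009 lower, so 6.83% were higher against 47.0%), and 6484 for e15 against nulls 1 to 3 (485 and 5999, or 7.48% against 44.1%) and 8746 for e19 against nulls 1 to 3 (388 and 8358, or 4.44% against 50.1%). That scaling gave 86 higher and 147 lower genes for e15 against e19 (36.9% higher against 26.7%). Fitting only the 6 null libraries gave 5004 genes between them, and fitting only the events 145; the cause was not tested. With only the 6465 genes of whole counts, and so fewer genes tested, the counts were 659 between the null sets, 86 and 504 for e15 against nulls 4 to 6 and nulls 1 to 3, 23 and 412 for e19, and 46 for e15 against e19.

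Leaving out 1 library at a time gave 1701 to 2282 genes between the null sets, 210 to 386 and 1621 to 2516 for e15 against nulls 4 to 6 and nulls 1 to 3, 51 to 158 and 1191 to 3016 for e19, and 169 to 447 for e15 against e19. All 4 named genes kept their sign in every alternative run, and were called in 9 of 15 (Glyma.03G056000) or 8 of 14 of them. Without e19 library 2, 34.8% of the 158 genes were higher in e19, against 56.8% of 81.

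Nulls 4 to 6 and nulls 1 to 3 share no replicate number, so that division has no paired fit. With the replicate number as a block, 3835 genes were called for e15 and 2458 for e19 against nulls 1 to 3, and 123 for e15 against e19, where fits of the same libraries without it gave 3483, 2135 and 145. Deviations of same-numbered libraries correlated at -0.05 to 0.07, and not every library correlated best with its own number. So few libraries cannot show whether a number marks a shared plant, batch or day, and the labels do not say. Depth of 19207771 to 23276877 counts limits differences of genes near the floor of 3 counts.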
